A study of Mus musculus with 6 samples.

Results

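A set of 10 genes of the bone morphogenetic protein (BMP) pathway was followed in sorted ureteric bud cells: the ligand genes Bmp2, Bmp4 and Bmp7, the secreted inhibitor gene Grem1, the inhibitory SMAD genes Smad6 and Smad7, and the target genes Id1, Id2, Id3 and Id4. They were chosen by symbol, and all 10 were found among the 17189 genes of the deposited tables. The ureteric bud is the branching epithelium that becomes the collecting duct system of the kidney. Its cells were sorted from mouse embryos at E16.5, late in branching, with 3 libraries in each of 2 groups, numbered in the labels as biological replicates. Both groups carried Hoxb7Cre-GFP, a Cre recombinase and fluorescent marker under the promoter of Hoxb7, a gene of the ureteric lineage. Control embryos had the genotype Ash2l F/+, so they also carried 1 floxed allele, exposed to the same Cre. The conditional knockout (cKO) embryos were Ash2l F/F. Neither group received a treatment. The labels do not state whether a library is 1 embryo or a pool, so a p-value here reflects only how these libraries vary, which may in part be technical. ASH2L belongs to the enzyme complexes that place methyl marks on histone H3 at promoters, and the study asks what its loss does to bud growth and to RET/GFRA1 signalling.

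BMPs are secreted dimers that bind paired receptor kinases, which phosphorylate SMAD1, SMAD5 and SMAD9. With SMAD4 these enter the nucleus and switch on Id1 to Id4, whose products block basic helix-loop-helix factors by binding their E-protein partners, and also Smad6 and Smad7, whose products shut the pathway down again. In the developing kidney, BMP4 from the mesenchyme around the duct restrains budding, GREM1 binds BMPs outside the cell and so permits outgrowth, and BMP7 is made by the bud itself and by nephron progenitors.

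Upstream sequences are shown for Bmp4, the ligand gene that rose, and for 3 ID genes whose fold changes differed in sign, because BMP-activated SMADs are known to act through a GC-rich element and a GTCT box. RefSeq promoter entries (build GRCm38.p6, not the build named for the counts) were matched for 6 of the 10 members. Bmp2, Bmp7, Id1 and Smad7 had no entry. Each run gives the 250 bases before the annotated start, 5′ to 3′ on the gene's strand, with every GGCGCC and every GTCT (AGAC on the other strand) in capitals. The windows are chr14:46390670-46390919 (minus strand) for Bmp4, chr12:25096093-25096342 (minus) for Id2, chr13:48260866-48261115 (plus) for Id4 and chr4:136143572-136143821 (plus) for Id3.
Bmp4: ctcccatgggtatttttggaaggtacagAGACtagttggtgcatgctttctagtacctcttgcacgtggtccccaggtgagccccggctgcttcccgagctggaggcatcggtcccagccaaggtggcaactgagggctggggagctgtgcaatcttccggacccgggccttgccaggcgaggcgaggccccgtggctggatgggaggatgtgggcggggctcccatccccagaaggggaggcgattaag
Id2: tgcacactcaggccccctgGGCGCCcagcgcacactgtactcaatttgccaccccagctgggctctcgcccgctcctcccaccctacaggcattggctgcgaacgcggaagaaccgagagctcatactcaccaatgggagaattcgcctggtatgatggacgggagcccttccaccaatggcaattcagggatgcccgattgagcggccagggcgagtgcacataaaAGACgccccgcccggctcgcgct
Id4: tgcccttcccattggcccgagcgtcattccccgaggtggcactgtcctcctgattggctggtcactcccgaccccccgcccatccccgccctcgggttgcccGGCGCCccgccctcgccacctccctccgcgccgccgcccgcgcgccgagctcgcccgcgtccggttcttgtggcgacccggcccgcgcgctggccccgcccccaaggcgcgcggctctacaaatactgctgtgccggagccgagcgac
Id3: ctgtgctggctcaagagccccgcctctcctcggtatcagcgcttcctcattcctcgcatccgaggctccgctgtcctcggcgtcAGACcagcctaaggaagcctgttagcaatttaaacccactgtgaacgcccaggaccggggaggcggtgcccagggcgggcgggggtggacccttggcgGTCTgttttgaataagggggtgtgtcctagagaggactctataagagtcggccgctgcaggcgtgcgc
GGCGCC stood 231 bases before the start of Id2, 148 before that of Id4 and 78 before that of Grem1, and was not in the windows of Bmp4, Id3 or Smad6. Of all 32851 upstream windows of this length, 9.6% held it. That share was not matched for base composition, and the 6 members' windows were 62.8 to 75.6% G or C. The Smad6 window, unlike the others, did not lie outside the annotated span of its gene. GTCT was in every matched member's window except that of Id4, and in 82.9% of all windows. The 2 motifs cannot overlap each other, and GGCGCC reads the same on both strands. A match describes the letters in the window and is not a measured binding site.

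Library totals ranged from 9620235 to 10538314 counts. Ash2l stood at 159 to 190 CPM (the read count normalised to library size) in controls and at 21.4 to 46.1 CPM in cKO, with all cKO libraries below all controls (edgeR adjusted p = 0.00786). The labels do not say which exons are floxed, so reads from outside the deleted part may be among those counted in cKO. Ureteric epithelial markers were abundant in every library, at a summed 9457 to 10568 CPM in controls and 5799 to 6830 CPM in cKO. Of these 12 markers, 4 fell and none rose, among them Hoxb7 (log2 fold change -1.30) and Calb1 (-0.71). By the same test 3.59% of all genes fell. When cKO replicate 3 was left out, 6 of the 12 fell and none rose, where 14.9% of all genes fell. In cKO replicate 3, 12.4% of the 11738 genes that passed 10 counts in all other libraries had no reads, and no other library exceeded 0.0297% by this measure. That library held 3 of the 10 members at 0, so results are given with and without it. Control replicate 1 differed in another way. Its 8 immediate early genes, which respond within minutes to stimulation or handling, summed to 6442 CPM, against 12090 to 14274 CPM in the other 5 libraries, and all 8 were lowest among the controls there. Of the 9 members tested, 7 were also lowest in control replicate 1 among the controls, against 35.5% of all genes tested. Whether the first pattern has a part in the second was not tested.

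With all 6 libraries 9 members passed the filter on low counts. Bmp4 rose and Bmp7 fell in cKO cells, and the other 7 were not called at an adjusted p under 0.05. By the same edgeR test, 3.52% of the 13047 genes tested rose and 3.59% fell. The median log2 fold change of the 9 members was 0.37, against -0.04 over all genes tested. Every cKO library lay above every control for 5 members (Bmp4, Smad7, Id1, Id2 and Id4) and below for Bmp7, where 16.7% and 20.7% of all tested genes did so. Without cKO replicate 3, all 10 were tested, and Id2 and Id4 rose as well, giving 3 that rose and 1 that fell. In that comparison 13.7% of 13660 genes rose and 14.9% fell. DESeq2 on all 6 libraries called the same 4 members in the same directions, beside 8.05% of genes higher and 7.69% lower.

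**Figure D1:**
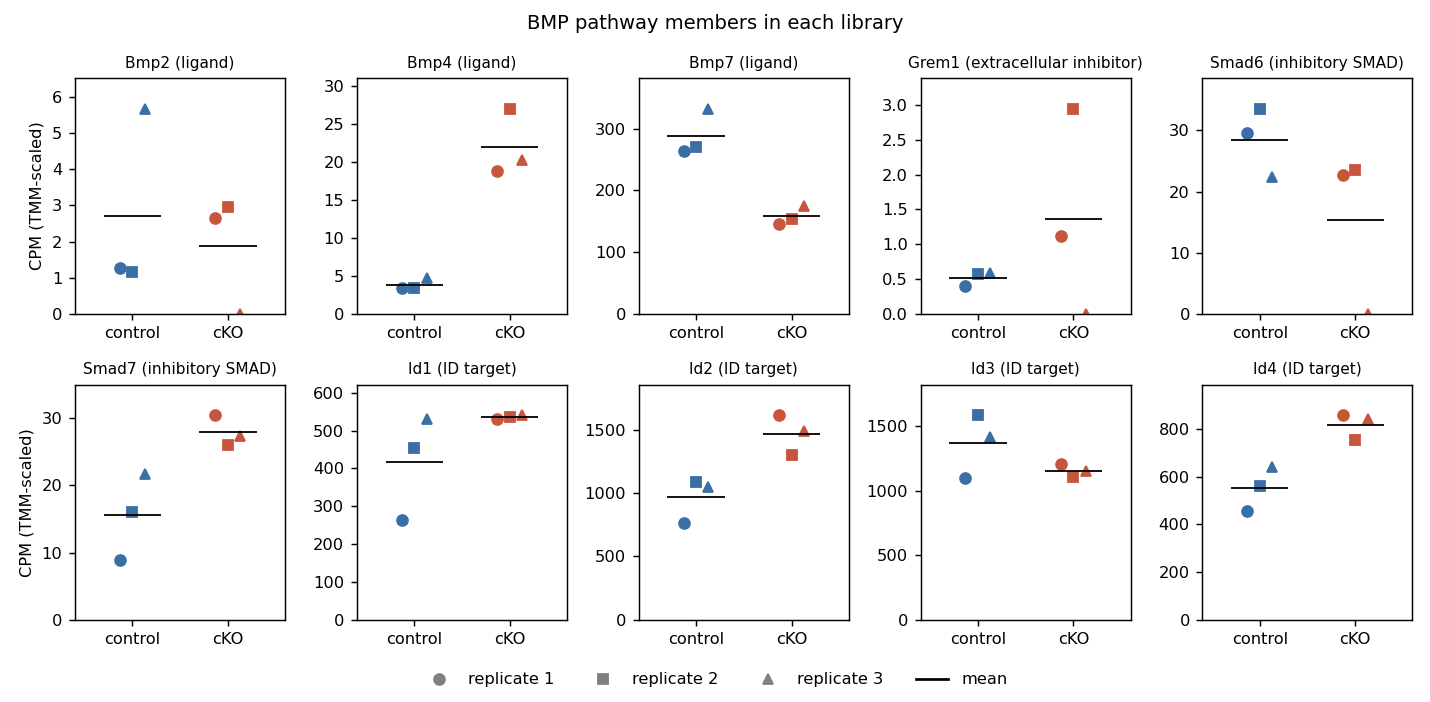
Level of each member in each library, as CPM on axes that start at 0, with controls in blue, cKO in red, a marker shape for each replicate number and a line at the group mean. Bmp4 is above and Bmp7 below all controls in every cKO library, and Bmp2, Grem1 and Smad6 are at 0 in cKO replicate 3 alone.

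Among the ligands, Bmp4 was scarce in controls and clearly detected in cKO. Reads on Bmp4 numbered 34, 36 and 48 in control libraries 1, 2 and 3, and 184, 265 and 202 in the cKO libraries in the same order. The groups were far apart, with the lowest cKO library at 18.8 CPM and the highest control at 4.69 CPM. Its mean rose from 3.82 ± 0.758 to 22.0 ± 4.35 CPM (SD, n = 3 each), a 5.73-fold change (log2 fold change 2.52, SE 0.402, edgeR adjusted p = 0.0176). The log2 fold change was 2.57 without cKO replicate 3 (adjusted p = 5.93e-05). Without each of the other 5 libraries in turn the size stayed between 2.35 and 2.69, but the call was lost each time, with the highest adjusted p at 0.101 without control replicate 2.

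Bmp7, by far the most abundant of the 3 ligand genes, moved the other way. The controls held 2687, 2842 and 3397 reads and the cKO libraries 1419, 1518 and 1746. All cKO libraries were below all controls, and the spread within each group was small beside the gap. Its mean fell from 289 ± 37.7 to 158 ± 14.9 CPM (SD, n = 3 each; log2 fold change -0.87, SE 0.130, edgeR adjusted p = 0.0146). The call was kept without cKO replicate 3 (-0.96, adjusted p = 7.77e-05) and lost without each other library, with the highest adjusted p at 0.0698 without cKO replicate 2.

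Bmp2, the closest relative of Bmp4, was near the limit of detection. Its counts were 13, 12 and 58 in controls and 26, 29 and 0 in cKO, so control replicate 3 stood above all others and the groups overlapped. The floor of 3 counts taken for a gene at 0 is 0.299 CPM in cKO replicate 3, and it covers counting error only. The log2 fold change of -0.53 had an SE of 1.52 (edgeR adjusted p = 0.88), and it was 0.05 without cKO replicate 3.

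Per unit of transcript length, the balance of these 3 ligands shifted. FPKM, the authors' length-scaled value, allows levels of different genes to be set side by side. The Bmp7 level was 44.3, 44.3 and 39.7 times that of Bmp4 in control replicates 1, 2 and 3, and 4.33, 3.21 and 4.85 times in cKO. Bmp4 made up 2.27 ± 0.126% of the summed FPKM of the 3 ligands in controls and 19.7 ± 3.3% in cKO (SD, n = 3 each). Because Bmp7 carried most of the sum, the total was lower in cKO, at 49.0, 57.2 and 58.5 FPKM against 72.6, 75.5 and 91.8 FPKM in controls. The groups overlapped neither in the ratio nor in the total. Both follow from the Bmp4 and Bmp7 values given above, so these are not separate results.

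**Figure D2:**
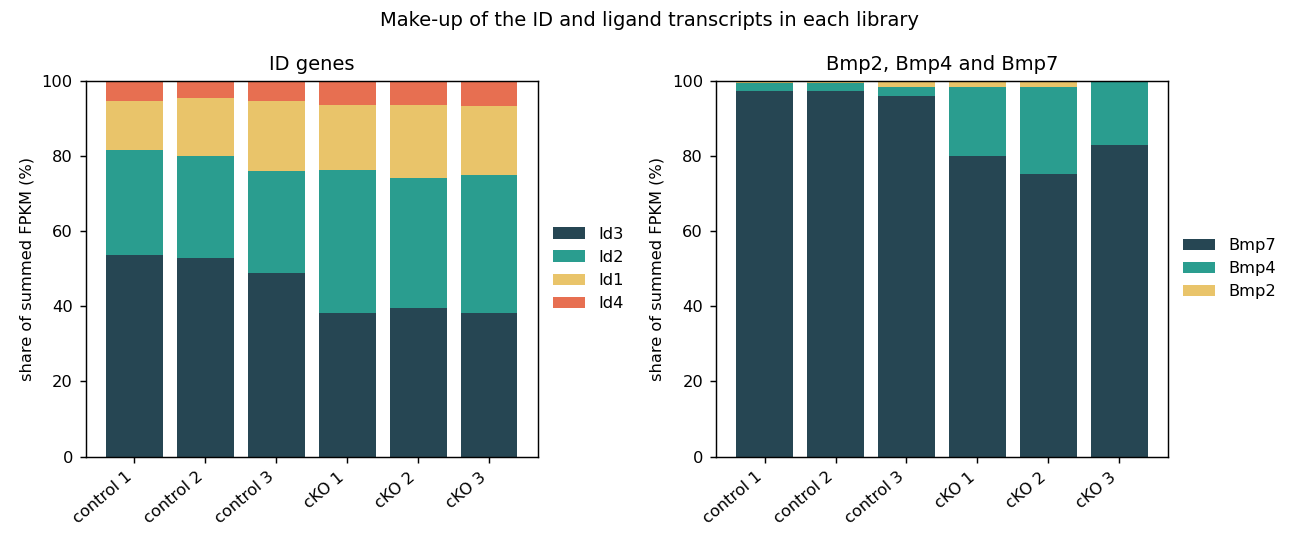
Share of each gene, in percent of summed FPKM per library, among the ID genes (left) and among Bmp2, Bmp4 and Bmp7 (right). Bmp4 takes 17.1 to 23.4% of the ligand sum in cKO and 2.19 to 2.42% in controls, and Id2 takes 34.6 to 38.2% of the ID sum in cKO and 27.0 to 27.8% in controls.

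Grem1, the secreted BMP antagonist, was at the edge of detection. It showed 4, 6 and 6 reads across the controls and 11, 29 and 0 across the cKO libraries, and did not pass the filter with all 6 libraries. Both cKO libraries with reads were above every control. Its log2 fold change was 1.94 without cKO replicate 3 (SE 0.906, edgeR adjusted p = 0.129), which missed the threshold. Grem1 passed the filter there only through the cKO libraries, where it is high, so that p-value supports nothing beyond the reads given. With all 6 libraries and no filter, edgeR gave 1.38 (SE 1.70, adjusted p = 0.689), and DESeq2 gave 1.38 (SE 1.78, adjusted p = 0.709).

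Of the inhibitory SMADs, Smad7, which acts on both the BMP and the TGF-beta branch, was higher in every cKO library but did not pass the test. It gave 91, 169 and 222 reads in the control libraries against 298, 256 and 274 in the cKO ones. Control replicate 1 was the lowest library and control replicate 3 lay close under the cKO range. The means were 15.6 ± 6.4 and 27.9 ± 2.28 CPM (SD, n = 3 each; log2 fold change 0.84, SE 0.369, edgeR adjusted p = 0.236). The adjusted p was 0.0548 without cKO replicate 3. Leaving out control replicate 1 gave a log2 fold change of 0.56 (adjusted p = 0.466).

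Smad6, which acts mainly on the BMP branch, showed no such difference. Counts were 301, 352 and 229 in controls and 223, 231 and 0 in cKO. The first 2 cKO libraries lay within the control range, at 22.8 and 23.5 CPM against 22.4 to 33.5 CPM, and cKO replicate 3 had no read. The log2 fold change was -0.89 with an SE of 1.32 (edgeR adjusted p = 0.76), and -0.31 with an SE of 0.223 without cKO replicate 3 (adjusted p = 0.33). Of the 2 inhibitory SMADs, Smad6 was the more abundant in controls, at 9.62 ± 2.01 against 3.45 ± 1.4 FPKM (SD, n = 3). In cKO replicates 1 and 2 they were close, with Smad6 at 7.75 and 8.22 and Smad7 at 6.8 and 5.99 FPKM.

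**Figure D3:**
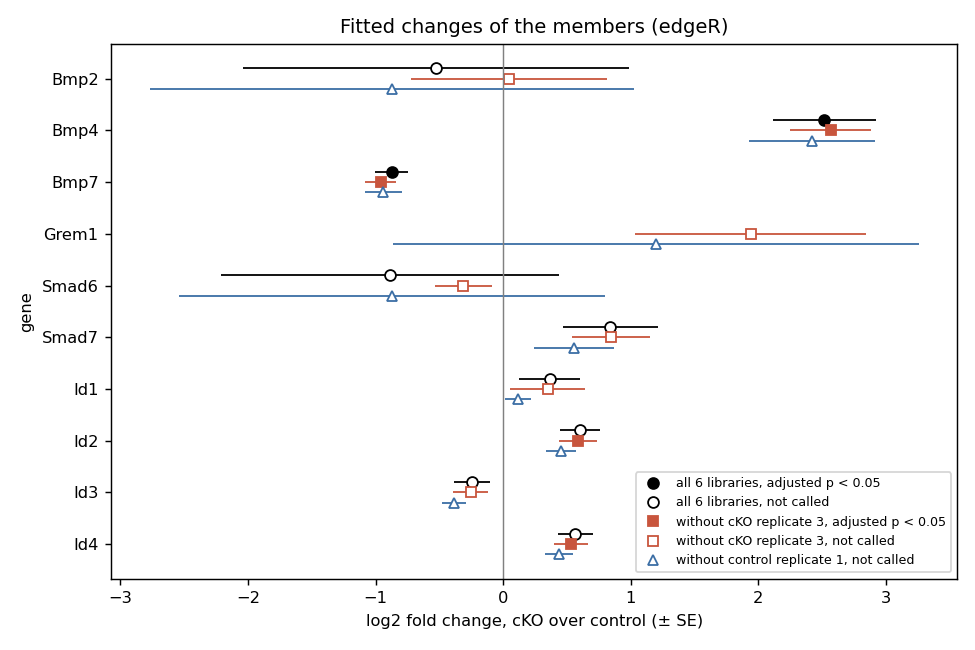
Fitted log2 fold change of cKO over control for each member, with bars of 1 SE, from all 6 libraries, without cKO replicate 3 and without control replicate 1. Filled markers passed an edgeR adjusted p under 0.05; Bmp4 and Bmp7 are filled with all 6 libraries, and Id2 and Id4 become filled without cKO replicate 3. Grem1 has no value with all 6 because it did not pass the filter on low counts.

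The ID genes were the most abundant members, and they did not move together. Id2 and Id4 were higher in every cKO library and passed the test only when cKO replicate 3 was left out, among the libraries left out in turn. Id1 was hardly above the highest control, and Id3 had a negative fold change. The summed FPKM of the 4 was 2116, 3137 and 2960 in controls and 3294, 3019 and 3240 in cKO, so the groups overlapped in total ID transcript.

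Id2, an ID gene widely expressed in epithelia, was counted 7761, 11416 and 10696 times in the controls and 15785, 12800 and 14909 times in the cKO libraries. The lowest cKO library was at 1300 CPM and the highest control at 1086 CPM. Means were 965 ± 177 and 1467 ± 158 CPM (SD, n = 3 each; log2 fold change 0.60, SE 0.157, edgeR adjusted p = 0.0702). It rose by 0.58 without cKO replicate 3 (SE 0.149, adjusted p = 0.0117). Without control replicate 1 the value was 0.45 (adjusted p = 0.151).

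Id4, the lowest of the 4 by FPKM though not by reads, showed 4630, 5878 and 6560 reads across the controls and 8385, 7411 and 8448 across the cKO libraries. Again every cKO library was above every control, from 753 to 857 CPM against 455 to 641 CPM. The fitted difference was 0.57 on the log2 scale (SE 0.138; edgeR adjusted p = 0.06). It rose by 0.53 without cKO replicate 3 (SE 0.132, adjusted p = 0.00859), and the value was 0.44 without control replicate 1 (adjusted p = 0.148).

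Id1, the classical direct target of BMP signalling, gave 2682, 4784 and 5416 reads in the control libraries against 5194, 5284 and 5417 in the cKO ones. The cKO libraries were nearly equal, at 531 to 540.5 CPM, and control replicate 3 reached 529.5 CPM, so the groups were separated by a very small margin. The fitted difference was 0.37 on the log2 scale (SE 0.239; edgeR adjusted p = 0.43). It was 0.12 (SE 0.101) without control replicate 1.

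Id3, also a direct BMP target and the highest ID gene in controls by FPKM, was counted 11221, 16654 and 14527 times in the controls and 11809, 10916 and 11563 times in the cKO libraries. By CPM, control replicate 1 was below all cKO libraries and the other 2 controls were above them. The margin of control replicate 1 was small, at 1102 CPM against 1109 CPM in cKO replicate 2, and by reads it was above that library. The fitted difference was -0.24 on the log2 scale (SE 0.139; edgeR adjusted p = 0.36). It was -0.38 (SE 0.0926, adjusted p = 0.131) without control replicate 1.

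Shares within a library do not depend on the overall level of the ID genes there. Id3 made up 53.7, 52.9 and 49.0% of the ID sum in control replicates 1, 2 and 3, and 38.2, 39.4 and 38.2% in cKO. The share of Id2 was 27.8, 27.2 and 27.0% in controls and 38.2, 34.6 and 36.9% in cKO. The Id4 share averaged 5.05 ± 0.485% in controls and 6.55 ± 0.138% in cKO (SD, n = 3 each), and that of Id1 was 15.7 ± 2.78% and 18.3 ± 1.18%. The groups did not overlap for Id2, Id3 and Id4, control replicate 1 included, and they overlapped for Id1. The shares of a library add up to its whole ID sum, so a lower Id3 share raises the rest, and these are not separate results. By CPM, every cKO library lay above every control for 16.7% of all tested genes and below for 20.7%.

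**Figure D4:**
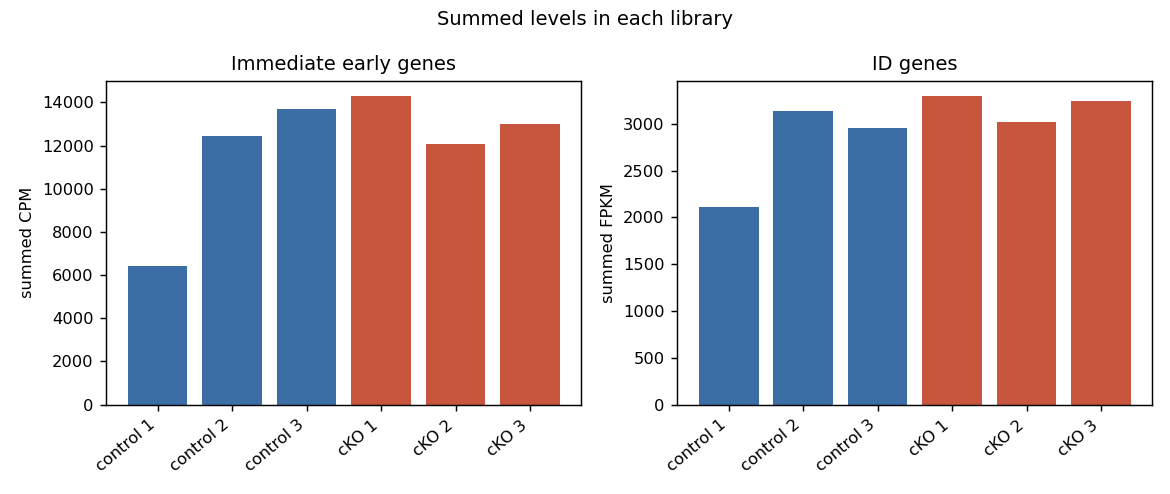
Summed level in each library of the 8 immediate early genes (CPM, left) and of the 4 ID genes (FPKM, right), with controls in blue and cKO in red and both axes starting at 0. Control replicate 1 is the lowest library in both, at 6442 CPM and 2116 FPKM.

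Ordered by mean FPKM, the control libraries ran Id3, Id2, Id1, Id4, Bmp7, Smad6, Smad7, Bmp4, Bmp2 and Grem1, from 1415 ± 263 down to 0.31 ± 0.0648 FPKM (SD, n = 3). Neighbours overlapped in range for Smad7 with Bmp4 and for Bmp2 with Grem1 in controls. In cKO the order was Id3, Id2, Id1, Id4, Bmp7, Bmp4, Smad7, Smad6, Grem1 and Bmp2. There Id3 (1191 to 1257 FPKM) and Id2 (1046 to 1259 FPKM) overlapped, as did all neighbours from Smad7 downward, where cKO replicate 3 is at 0 for 3 genes. Bmp4 passed from place 8 in controls to place 6 in cKO, above both inhibitory SMADs.

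The rest of the pathway was described with a list of 54 other BMP genes, of which 47 were in the table and 40 were tested. Of these, 2 rose (Sostdc1 and Tob1), 1 fell (Fstl1) and 37 were not called, beside the 3.52% and 3.59% of all genes. The median log2 fold change was -0.14, against -0.04 over all genes. Without cKO replicate 3, 7 of 42 rose and 6 fell, beside 13.7% and 14.9% of all genes. Of the 7, Bmp5, Bmp8a and Fst were nearly without reads in controls and entered the test only through the cKO libraries. In cKO replicate 3, 13 of the 47 were at 0, against 1 or 2 in the other cKO libraries and 5 to 9 in controls.

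None of the 4 other ligand genes tested was called with all 6 libraries. Bmp3, an atypical member that opposes other BMPs, averaged 24.1 ± 6.74 CPM across controls and 18.5 ± 5.35 across cKO libraries (SD, n = 3; edgeR adjusted p = 0.602). Bmp8a showed 2, 0 and 0 reads across the controls and 15, 11 and 12 across the cKO libraries (adjusted p = 0.179, and 0.0381 without cKO replicate 3). Bmp8b overlapped, with 4, 20 and 0 counts against 16, 22 and 0. Bmp5 gave 2, 3 and 0 reads in the control libraries against 53, 40 and 0 in the cKO ones, and was called in 1 of the 4 tests with 1 library left out in which it passed the filter, the one without cKO replicate 3 (adjusted p = 0.00208). Bmp5 and Bmp8a passed the filter only through the cKO libraries, where they are high, so their p-values support nothing beyond the reads given. Bmp5 and the genes called without that library in what follows were named after their values were seen.

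Secreted modulators moved in both directions. Sostdc1, which encodes a BMP and Wnt antagonist, was counted 540, 539 and 616 times in the controls and 1103, 1100 and 1226 times in the cKO libraries, with no overlap. It rose from 54.8 ± 4.74 to 116 ± 5.86 CPM (SD, n = 3 each; log2 fold change 1.08, SE 0.128, edgeR adjusted p = 0.00786). Its call was kept in 4 of 6 tests with 1 library left out, with the highest adjusted p at 0.0544 without control replicate 2. Fstl1, whose secreted product binds BMPs, fell from 1030 ± 45.3 to 666 ± 49.5 CPM (log2 fold change -0.63, adjusted p = 0.0125; called in 3 of 6 such tests, highest 0.0664 without control replicate 3). Twsg1, a modulator of BMP binding to chordin, was at 386 ± 19.1 and 211 ± 65.6 CPM (adjusted p = 0.0758). Without cKO replicate 3, Twsg1 fell and Fst and Crim1 rose. Fst, which encodes follistatin, showed 1, 0 and 0 reads across the controls and 22, 14 and 13 across the cKO libraries (adjusted p = 0.00919 without cKO replicate 3), and it too passed the filter only through the cKO libraries. Noggin, a strong BMP antagonist, was not called, although its gene Nog gave 1, 7 and 18 reads in the control libraries against 41, 35 and 44 in the cKO ones (adjusted p = 0.294, and 0.0814 without cKO replicate 3). Nog would not have passed the filter through the controls alone, so its p-values support nothing beyond the reads given.

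Of the 10 receptor and co-receptor genes tested, none was called with all 6 libraries. The 3 with the smallest p were Bmpr1b (log2 fold change 0.54, SE 0.193), Bmpr1a (-0.30, SE 0.158) and Acvr2b (-0.39, SE 0.218), with edgeR adjusted p between 0.151 and 0.345. Bmpr1b and Bmpr1a encode type I receptors of BMPs, and Acvr2b a type II receptor. Bambi, a pseudoreceptor that is itself induced by BMP, was counted 470, 512 and 608 times in the controls and 182, 346 and 884 times in the cKO libraries. It fell without cKO replicate 3 (-0.95, adjusted p = 0.0113), while with all 6 libraries the value was -0.12.

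Among signal transducers, Tob1, whose product represses SMAD activity, showed 363, 405 and 559 reads across the controls and 1139, 1042 and 698 across the cKO libraries. It rose by 1.18 on the log2 scale (SE 0.259, edgeR adjusted p = 0.0455), a call kept only without cKO replicate 3 among the 6 libraries left out in turn (highest 0.188 without control replicate 2). Smad5 was below all controls in each cKO library (-0.73, SE 0.285, adjusted p = 0.186), and the co-repressor gene Ski was at 0.87 (SE 0.457). Smad1 had 829 and 820 counts in the first 2 cKO libraries and 1503 in cKO replicate 3, against 1355 to 1438 in controls. Without that library Smad1 fell by 0.69 (adjusted p = 0.00056) and Smad5 fell by 0.48 (adjusted p = 0.0296).

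Of 6 tested target genes outside the ID and SMAD families, none was called with all 6 libraries. Hey1, a transcription factor gene responsive to BMP and Notch, gave 90, 106 and 81 reads in the control libraries against 215, 208 and 227 in the cKO ones. The groups were well apart, at 8.95 ± 1.09 and 21.9 ± 0.764 CPM (SD, n = 3), yet the edgeR adjusted p was 0.0585; without cKO replicate 3 Hey1 rose by 1.26 (adjusted p = 0.00294). Gata2 moved the other way, from 227 ± 65.5 to 131 ± 5.86 CPM (adjusted p = 0.0702), and fell by 0.79 without cKO replicate 3 (adjusted p = 0.0202). Msx1, a homeobox target, was counted 3, 6 and 6 times in the controls and 29, 16 and 83 times in the cKO libraries (adjusted p = 0.132, and 0.0791 without cKO replicate 3). Msx1 passed the filter only through the cKO libraries, where it is high, so its p-values support nothing beyond the reads given.

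**Figure D5:**
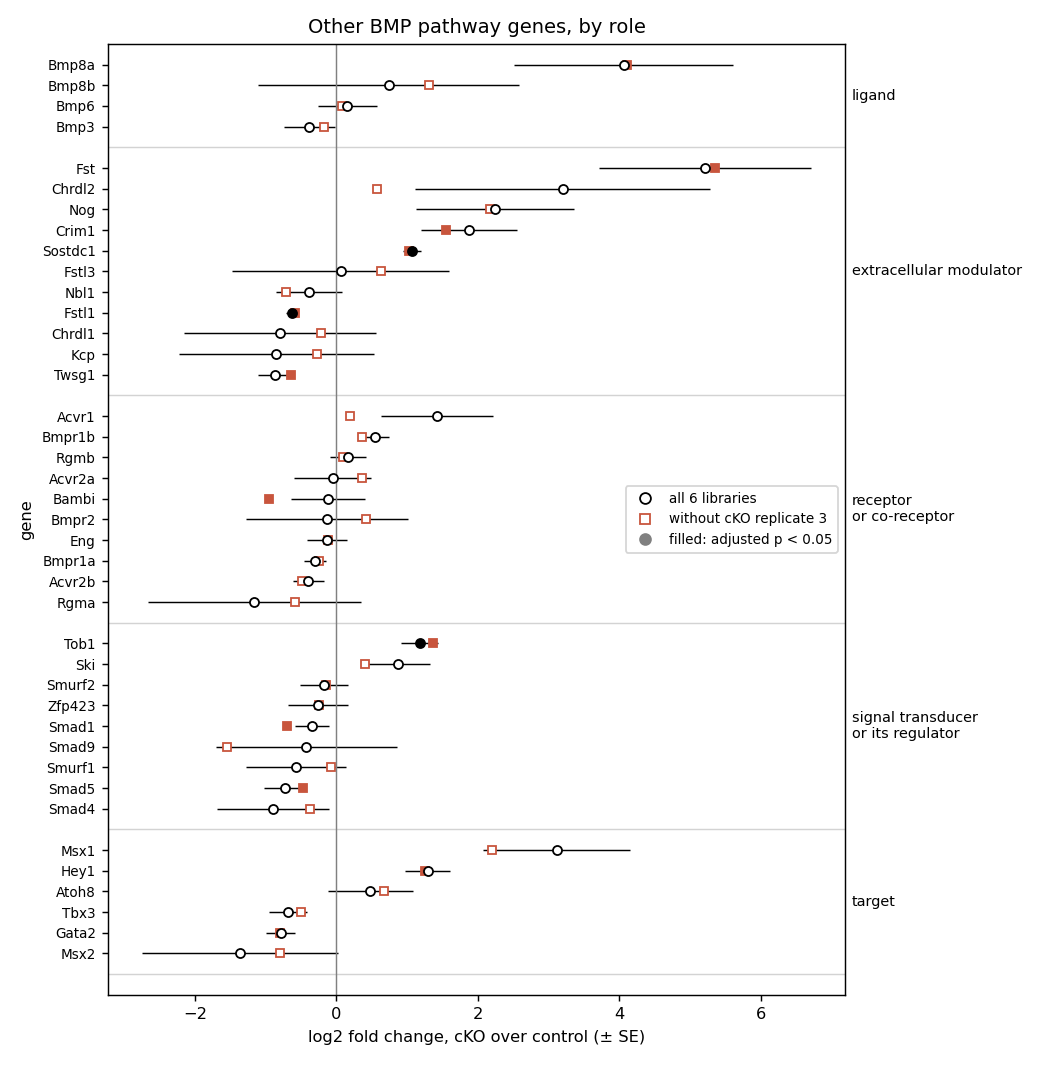
Log2 fold change of cKO over control for the 40 other BMP pathway genes tested, by role, with bars of 1 SE for the fit to all 6 libraries (circles) and the values without cKO replicate 3 (squares). Sostdc1, Fstl1 and Tob1 are filled, passing an edgeR adjusted p under 0.05 with all 6; values of genes near 0 in controls, such as Fst and Bmp8a, depend on the prior count of the fit.

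Partners of the ID proteins were measured as well. Tcf3, which encodes the E-proteins E12 and E47, showed 2538, 2981 and 3128 reads across the controls and 1506, 1602 and 1590 across the cKO libraries. It fell from 280 ± 28.5 to 158 ± 4.41 CPM (SD, n = 3 each; log2 fold change -0.82, SE 0.106, edgeR adjusted p = 0.00985), with no overlap, and was called in 4 of 6 tests with 1 library left out (highest 0.0612 without control replicate 3). Tcf4 (-0.49, SE 0.267) and Tcf12 (0.06, SE 0.125) were not called.

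Smad7 also answers to TGF-beta, so 15 genes of that branch were set beside it. Of 13 tested, 1 rose and none fell, beside 3.52% and 3.59% of all genes, and the median log2 fold change was -0.17. The member that rose was Ccn2, a secreted matrix protein gene that also responds to YAP, with 472, 897 and 1166 reads in the control libraries against 9935, 7857 and 7824 in the cKO ones (log2 fold change 3.40, SE 0.334, edgeR adjusted p = 0.0057). Smad3, a transducer of this branch, was at 44.5 ± 7.67 and 22.3 ± 13.1 CPM (adjusted p = 0.319). Without cKO replicate 3, Smad3 fell (adjusted p = 0.0377), and so did Pmepa1, a TGF-beta target whose product restrains SMAD signalling (-1.62, adjusted p = 0.0142). These are 2 of 13, where 14.9% of all genes fell.

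Bmp4 and Grem1 are also made by stroma, and Id1, Id3 and Smad6 by endothelium, so markers of other cells were checked. In bulk libraries more cells of a type and more RNA per cell cannot be told apart. The 11 stromal markers in the table summed to 13.2 to 28.4 CPM in controls and 12.9 to 46.6 CPM in cKO, and none of the 7 tested was called. With all 6 libraries 3.52% of all genes rose and 3.59% fell, so for this list and those below, no call among so few genes shows little. The stromal gene Foxd1 had 5 counts in control replicate 3 and 0 in the others, and Dcn (at most 3.81 CPM) and Ren1 (at most 22.8 CPM) overlapped or were lower in cKO. Control libraries 1, 2 and 3 had stromal sums of 13.2, 24.0 and 28.4 CPM with Bmp4 at 3.34, 3.43 and 4.69 CPM and Grem1 at 0.393, 0.571 and 0.587 CPM. For the cKO libraries the sums were 12.9, 46.6 and 25.0 CPM, with Bmp4 at 18.8, 26.9 and 20.2 CPM and Grem1 at 1.12, 2.94 and 0 CPM. Ren1 made up 12.9 CPM of the stromal sum in control replicate 2, and 21.0 and 22.8 CPM in cKO replicates 2 and 3. In cKO replicate 3, 9 of the 11 stromal markers had no reads. Endothelial markers summed to 53.7 to 60.1 CPM in controls and 25.5 to 30.8 CPM in cKO. Nearly all of the control sum was Egfl7, which fell (log2 fold change -1.85), while Cdh5, a defining endothelial gene, had at most 2 counts in any library. Egfl7 stood at 57.6, 47.6 and 54.7 CPM in controls and at 16.7, 15.1 and 12.6 CPM in cKO. The other endothelial markers were low, but together they summed higher in every cKO library than in any control. In cKO replicate 3 that remainder was Tie1, with 0, 6 and 0 reads in controls and 14, 0 and 183 in cKO. Kdr, Emcn and Cdh5 had lower means in cKO. Tek had 0, 6 and 0 reads in controls, 29 in each of the first 2 cKO libraries and 0 in the other. Tek did not pass the filter with all 6 libraries. Without cKO replicate 3, 4 endothelial markers were tested, and 1 rose (Tek, log2 fold change 3.85, edgeR adjusted p = 0.0249) and 1 fell (Egfl7). Tek passed the filter there only through the cKO libraries, where it is high, so that p-value supports nothing beyond the reads given. Nephron markers summed to 285 to 321 CPM in controls and 243 to 332 CPM in cKO, with none of 6 called (Pax8 -0.26, Lrp2 2.42). Six2 had at most 7 reads in any library, and Cited1 had 54, 36 and 61 reads in controls and 129, 118 and 178 in cKO. Among the nephron markers, Lhx1 and Pax8 are also expressed by the ureteric bud. When cKO replicate 3 was left out, 3 nephron markers rose (Cited1, Slc34a1 and Lrp2) and 2 fell (Lhx1 and Pax8). In that comparison 13.7% of all genes rose and 14.9% fell. Immune markers summed to 43.7 to 86.1 and 56.2 to 103 CPM, with none of 6 called (Ptprc -0.23, Cd68 2.03), and Hba-a1 of red cells was high only in control replicate 3, at 253 CPM against at most 23.0 CPM elsewhere. Of the immediate early genes, Atf3 rose (log2 fold change 2.76, edgeR adjusted p = 0.0282, but 0.0819 without cKO replicate 3) and Fos, the most abundant by mean, was at 0.39 (adjusted p = 0.564). The part of these differences in the members' values was not tested.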

How the data were processed

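Total RNA of sorted cells was made into stranded mRNA libraries, per the labels' protocols. The deposited tables give raw read counts per gene and FPKM, each with a column per library. The submitters' processing notes list the tools HISAT2, HTSeq, Cufflinks and DESeq and the build GRCm39, with no version or role. Whether reads were counted by strand is not stated there. FPKM deposited by the authors are the counts scaled by 1 factor per gene and 1 per library (largest relative deviation 2.21e-07), so they add no independent evidence.

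Counts of cKO and control were compared with edgeR 4.0.16 (R 4.3.3): filterByExpr, which left 13047 of 17189 genes, TMM scaling and a robust quasi-likelihood F-test with a single term, the group. Benjamini-Hochberg adjustment ran over all tested genes. A gene was called, and is said to have risen or fallen, at an adjusted p under 0.05. SE is the absolute log2 fold change divided by the square root of F, and CPM use TMM-scaled library sizes. Steps were tested on simulated data. Alternatives were DESeq2 1.42.0, RLE scaling, no filter, limma 3.58.1 on log2(FPKM + 1) and log2(FPKM + 0.1), the replicate number as a block, and each library left out.

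The members and lists were chosen with earlier results of these data known. Named genes are the 10 members, Ash2l, all 3 E-protein genes, the 3 genes of each other BMP role and the 2 TGF-beta genes with the smallest p, and, of each marker list and the immediate early genes, the gene with the smallest p and the most abundant tested gene. Other names are marked or give context. Foxd1, Six2, Tek, Cdh5, Tie1, Kdr, Emcn, Nog, Pmepa1 and the genes called only when cKO replicate 3 was left out were named after their values were seen.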

Additional observations from a re-analysis of the deposited data

How the results depend on the processing

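Of 108 values of single members under alternatives, 86 kept their direction and their side of the threshold, 12 lost the call, 8 gained it and 2 changed sign. Both sign changes were of Bmp2, which was never called; its log2 fold change ranged from -1.02 to 0.61 with 1 library left out (0.05 without cKO replicate 3). Grem1 is not among these, because it did not pass the filter of the main test. The number of members called higher was 1, but 3 with DESeq2, with limma on log2(FPKM + 1) and with limma on log2(FPKM + 0.1), and 0 to 3 with 1 library left out; the number called lower was 1, and 0 to 1 with 1 library left out. Of the other BMP pathway genes, 2 were higher and 1 lower; DESeq2 gave 6 and 3, limma gave 6 higher with log2(FPKM + 1) and 5 with log2(FPKM + 0.1), and leaving out 1 library gave 0 to 7 higher and 0 to 6 lower. In all 4 counts the highest of these came without cKO replicate 3. With the replicate number as a block all 4 counts were 0 (Bmp4 2.52, adjusted p = 0.11; Bmp7 -0.87, adjusted p = 0.0554). Libraries with the same number deviated from their group means with correlations of -0.02, 0.02 and -0.00 across genes. Pairs with different numbers gave -0.03 to 0.03. The labels do not say that a number marks a shared litter, batch or day, and these correlations cannot exclude a small shared effect. The cause of these differences was not tested. RLE scaling and no filter gave the main counts. The SE of Bmp2 (1.52) and Smad6 (1.32) fell to 0.765 and 0.223 without cKO replicate 3, where both are at 0.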
